A study of Homo sapiens with 36 samples.

Results

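Translational efficiency is the number of ribosome footprints on a gene's mRNA relative to the amount of that mRNA. It was measured here after 6 h of actinomycin D in WiT49, a cell line established from an anaplastic Wilms tumor, the childhood kidney cancer. Cells in complete medium received 2 nM actinomycin D (actD) or the vehicle DMSO, and the labels name no other treatment and no genetic change in either group. Each treatment gave 3 total RNA libraries and 3 footprint libraries, so 12 of the 36 libraries of the series were used, and the other 24 come from 72 h and 2 weeks. WiT49 is a single cell line, and the labels do not say whether replicates were separate cultures, so the p-values measure the spread between these libraries, which may be technical. A gene was a member if it was listed in both 6 h tables and passed a filter on low counts in each assay. Of 43582 genes listed in both tables, 951 were members, 806 of them protein-coding. The 6 h RNA data alone had 22669 genes above the filter, and the footprint data had 1212.

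Actinomycin D binds DNA and blocks transcription, and at low concentrations it acts foremost on RNA polymerase I, which makes ribosomal RNA. A ribosome shields the stretch of mRNA it sits on from nuclease, and sequencing these shielded fragments counts ribosomes on each mRNA. When footprints on a gene change by the same factor as its RNA, its translational efficiency is unchanged, and a larger or smaller factor gives a change of efficiency. Messages for ribosomal proteins and some translation factors start with a cytosine and an unbroken run of pyrimidines, the 5′ terminal oligopyrimidine (TOP) motif, through which growth signalling is known to switch their translation.

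The first bases of a few members show this feature. The RefSeq windows below (GRCh38.p14) hold 10 bases before and 15 bases from the annotated start, and capitals mark an unbroken run of C and T that begins at the start with a C. They include the ribosomal proteins with the highest and lowest fitted efficiency change in each subunit. The others are the protein-coding members with the lowest p-value in each direction, COX4I1 (higher) and MSH6 (lower), and TJP1, a long message for contrast. RPL31 is at chr2:101002279-101002303 on the plus strand, RPLP0 at chr12:120201097-120201121 on the minus strand, RPS3 at chr11:75399508-75399532 on the plus strand and FAU at chr11:65122120-65122144 on the minus strand. COX4I1 is at chr16:85799685-85799709 and MSH6 at chr2:47783135-47783159, both on the plus strand, and TJP1 is at chr15:29969035-29969059 on the minus strand.
RPL31: ccttcgcgctCTTCCTTTCCaactt
RPLP0: ggcgcgaggcCCTTCTCTCgccagg
RPS3: cgagccacttCCTTTCCTTTCagcg
FAU: tcgcttcttcCTCTTTCTCgactcc
COX4I1: cggccttgctCTCTTCCggtcgcgg
MSH6: gcctccccccagatttcccgccagc
TJP1: accggagcgcgccgccgggccacgg

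Mature microRNAs are close in size to a footprint, and they took up much of the footprint libraries. The RefSeq mature sequences of 2 abundant microRNA genes follow, with the seed (bases 2 to 8) in capitals.
hsa-miR-148a-3p: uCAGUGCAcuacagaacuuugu
hsa-let-7a-5p: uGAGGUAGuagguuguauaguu
The counts are per gene and do not say which arm was read. let-7a-5p is the same in the genes MIRLET7A1, MIRLET7A2 and MIRLET7A3, so their counts cannot be told apart.

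RNA libraries held 58421293 to 69240041 counts. Footprint libraries held 363273 to 1281039, of which 23134 to 94447 (2.12% to 19.8%) lay on protein-coding genes. MicroRNA genes took 71.4%, 58.5% and 16.1% of the counts in the 3 actD footprint libraries and 4.67%, 45.1% and 60.8% in the 3 DMSO libraries, so the share varied within each treatment as widely as between them. MIR148A alone took 0.347% to 25.9%. A count of 0 allows up to 3 counts, which is 6.47 to 20.5 CPM in the footprint libraries, and this covers counting error only. CPM here are counts per 1000000 after scaling within each assay on the member genes, and every level below is on that scale. The RNA carried WT1, LIN28B, IGF2 and MYCN, genes known from Wilms tumor and fetal kidney, whereas SIX2, EYA1, PAX2, PAX8, CITED1 and SALL1, markers of kidney progenitors, lay under 1 CPM of all RNA. PTPRC of blood cells, UMOD of differentiated nephrons and ALB of liver were listed at 0. Among the other markers of the same list, the epithelial keratins KRT8 and KRT18 were high in every RNA library, at 2900 to 4280 and 1750 to 2580 CPM of all RNA. KRT19 was at 37.5 to 59.1 CPM on the same scale. PDGFRB, known from pericytes and fibroblasts, was at 41.2 to 49.9 CPM and the epithelial surface protein EPCAM at 9.4 to 13 CPM. These are levels in whole libraries of the cell line, and their relation to the results was not tested.

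No gene passed the test for a change of translational efficiency after 6 h. With edgeR's quasi-likelihood test and Benjamini-Hochberg adjustment over 951 genes, 0 genes (0%) had an adjusted p under 0.05, and the smallest adjusted p was 0.202. At an unadjusted p under 0.05 there were 50 genes (5.26%), 28 (2.94%) with a higher and 22 (2.31%) with a lower fitted efficiency in actD. DESeq2 called 1 gene (0.105%), the mismatch repair gene MSH6. The separate tests at 6 h also called 0 of 22669 genes in RNA and 0 of 1212 in footprints by edgeR, with 8.21% and 3.14% at an unadjusted p under 0.05, whereas DESeq2 called 189 and 10.

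The fitted efficiency changes centred on -0.0263 on the log2 scale and had an SD across genes of 0.747. Across the 951 genes the SD of the footprint change was 0.743 and that of the RNA change 0.309, so most of the scatter in efficiency lay in the footprints. Spearman's rho across genes, which are not independent replicates, was 0.884 between the efficiency change and the footprint change and -0.0679 between the efficiency change and the RNA change. Efficiency is computed from both, so these describe the measure and carry no test. Of the 951 genes, 131 (13.8%) had footprint levels that did not overlap between treatments, 66 (6.94%) higher and 65 (6.83%) lower in actD. RNA levels did not overlap for 194 (20.4%).

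**Figure D1:**
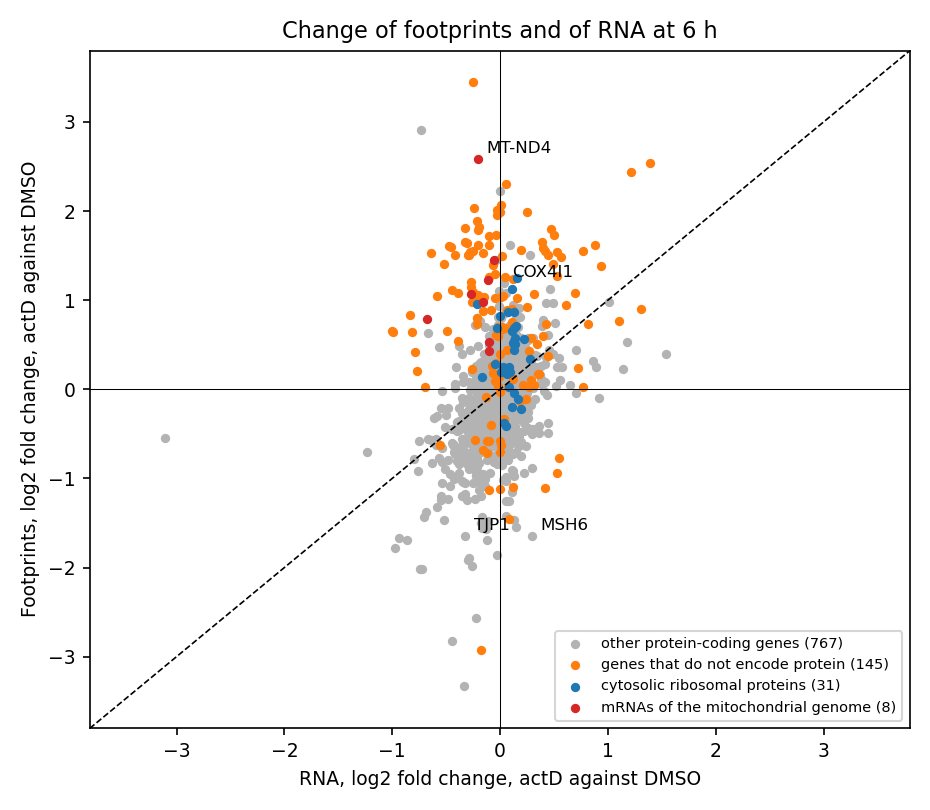
Log2 fold change of footprints (vertical) against that of RNA (horizontal), actD against DMSO at 6 h, with 1 point for each of the 951 genes tested and a dashed line where both are equal. The points spread more along the footprint axis (SD 0.743) than along the RNA axis (SD 0.309), and no gene passed the efficiency test.

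Among protein-coding genes with a lower fitted efficiency, those with the smallest p-values included MSH6, ARID4B, TJP1, THRAP3, PLK2, FASN and UGP2. In each of these 7 genes the footprint levels of the 3 actD libraries lay below all 3 DMSO libraries. The genes were picked by p-value, so this separation is a description of the choice. None passed the adjusted threshold.

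MSH6 (chr2:47695530-47810101, plus strand) encodes a subunit of the complex that recognises mismatched bases in DNA. Its footprint level was 93.3, 157 and 97.7 CPM in the actD libraries and 384, 341 and 315 CPM in the DMSO libraries, without overlap. Its RNA level was 431, 378 and 251 CPM in actD and 288, 273 and 268 CPM in DMSO, with 2 actD libraries above DMSO and the other below. The fitted efficiency change was -1.95 (SE 0.36, edgeR adjusted p = 0.202) on the log2 scale. DESeq2 gave an adjusted p of 0.000546, and leaving out the second actD footprint library gave an edgeR adjusted p of 0.0361. Over the 27 alternatives the change ranged from -2.69 to -1.77 and the adjusted p from 0.000546 to 0.906. A copy of a U6 spliceosomal RNA gene (RF00026) lies on the same strand within the annotated span of MSH6, and FBXO11 lies on the other strand. The footprint level of MSH6 in DMSO was 1.26 times its RNA level, against a median of 0.229 over the protein-coding genes tested, and 26 of those genes had a higher ratio. Small nuclear RNA genes took 32.2%, 19.9% and 6.18% of the DMSO footprint libraries and 8.56%, 10.6% and 24.2% of the actD libraries, and the part such reads play in the MSH6 value was not tested.

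ARID4B encodes a subunit of a histone deacetylase complex. Footprints on ARID4B were at 23.3, 27.4 and 42.5 CPM in actD and 75.5, 104 and 103 CPM in DMSO, and the efficiency change was -1.73 (SE 0.43, edgeR adjusted p = 0.524). Every actD library lay below every DMSO library, but the microRNA gene MIR4753 lies within ARID4B on the same strand.

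TJP1 encodes the tight junction scaffold ZO-1 and THRAP3 a protein of splicing and transcription complexes. TJP1 footprints were at 58.3, 34.2 and 29.7 CPM in actD and 112, 116 and 137 CPM in DMSO. The highest actD value was well under the lowest DMSO value, and the efficiency change was -1.31 (SE 0.37, edgeR adjusted p = 0.524). THRAP3 footprints were at 29.1, 34.2 and 21.2 CPM in actD and 105.7, 139 and 75.3 CPM in DMSO. THRAP3 RNA was lower too, at 322, 353 and 227 CPM in actD against 475, 489 and 492 CPM in DMSO without overlap. The fitted footprint change of THRAP3 was -2.02, its RNA change -0.74 and its efficiency change -1.30 (SE 0.40, edgeR adjusted p = 0.585).

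PLK2, a stress-induced kinase, was the only one of 27 listed p53 target genes with enough footprints to be tested. WiT49 comes from an anaplastic tumor, a class in which p53 is often mutated. PLK2 footprints were at 46.6, 41 and 12.7 CPM in actD and 86.3, 95.3 and 82.1 CPM in DMSO, and its RNA was at 439, 438 and 358 against 446, 464 and 425 CPM. The footprints were lower in every actD library, from 8, 6 and 3 counts, while the RNA groups overlapped. The efficiency change was -1.36 (SE 0.44, edgeR adjusted p = 0.585).

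FASN, the fatty acid synthase, had the lowest fitted efficiency change of all, -3.10 (SE 1.02, edgeR adjusted p = 0.585). It was listed at 0, 0 and 8 footprint counts in actD and at 119, 28 and 11 in DMSO, although its RNA stayed at 757 to 868 CPM in actD and 910 to 1190 CPM in DMSO. Leaving out the third actD footprint library, the only one of its group above 0, moved the fitted change to -13.74, a value set by the zeros. UGP2, which makes UDP-glucose for glycogen and glycoproteins, had the smallest change of these 7 genes, -0.89 (SE 0.29, edgeR adjusted p = 0.585), with footprints at 58.3, 47.9 and 80.7 CPM in actD against 132, 92.5 and 109.5 CPM in DMSO.

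Zeros of this kind were common. Of the 951 genes, 99 were listed at 0 in at least 1 footprint library, and 88 of these had 20 or more counts in another. CCT7, a subunit of the chaperonin that folds actin and tubulin, was listed at 0, 12 and 23 counts in actD and at 260, 0 and 0 in DMSO. The actin-binding protein PFN1 was listed at 0, 0 and 15 against 70, 38 and 0. The RNA level of CCT7 was 1202 to 1457 CPM in all 6 libraries, so the footprint zeros had no counterpart in the RNA. A single library can decide such a value. The efficiency change of CCT7 was -1.63 (SE 1.96) with all libraries and 12.67 without the first DMSO footprint library.

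Among protein-coding genes with a higher fitted efficiency, the smallest p-values belonged to COX4I1, PHB2, TBRG4, MT-ND4, NFAT5, MTA3, APLP2 and SEPT9. COX4I1, a nuclear-encoded subunit of cytochrome c oxidase, had footprints at 99.1, 75.2 and 140 CPM in actD and 47.5, 37.6 and 54.7 CPM in DMSO. The footprint groups did not overlap, whereas the RNA groups did, at 245, 227 and 294 CPM against 235, 266 and 217 CPM. The efficiency change was 1.14 (SE 0.33, edgeR adjusted p = 0.585).

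PHB2 encodes prohibitin of the inner mitochondrial membrane, and TBRG4 a mitochondrial RNA-binding protein. PHB2 footprints were at 105, 109.4 and 97.7 CPM in actD and 79.8, 49.1 and 47.9 CPM in DMSO, with an efficiency change of 0.94 (SE 0.31, edgeR adjusted p = 0.585). TBRG4 footprints were at 93.3, 95.8 and 72.2 CPM in actD and 64.7, 31.8 and 41.1 CPM in DMSO, with an efficiency change of 1.02 (SE 0.34, edgeR adjusted p = 0.585). Both genes were above the DMSO range in every actD library. Both also carry small RNA genes in their annotated span (SCARNA12 in PHB2, SNORA5A to SNORA5C in TBRG4), whose reads cannot be told apart from theirs by gene counts. APLP2, a membrane protein of the amyloid precursor family with no small RNA gene inside it, had footprints at 140, 157 and 157 CPM in actD and 110, 66.5 and 61.6 CPM in DMSO and an efficiency change of 0.80 (SE 0.32, edgeR adjusted p = 0.736). The changes of the transcription factor NFAT5, the chromatin protein MTA3 and the septin SEPT9 were 1.35, 1.01 and 0.84. The footprint groups of NFAT5 and MTA3 overlapped, as 1 DMSO library of NFAT5 lay at 82.1 CPM inside the actD range of 67.9 to 95.8 CPM and MTA3 ran from 34 to 75.8 CPM in actD against 28.1 to 34.7 CPM in DMSO.

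**Figure D2:**
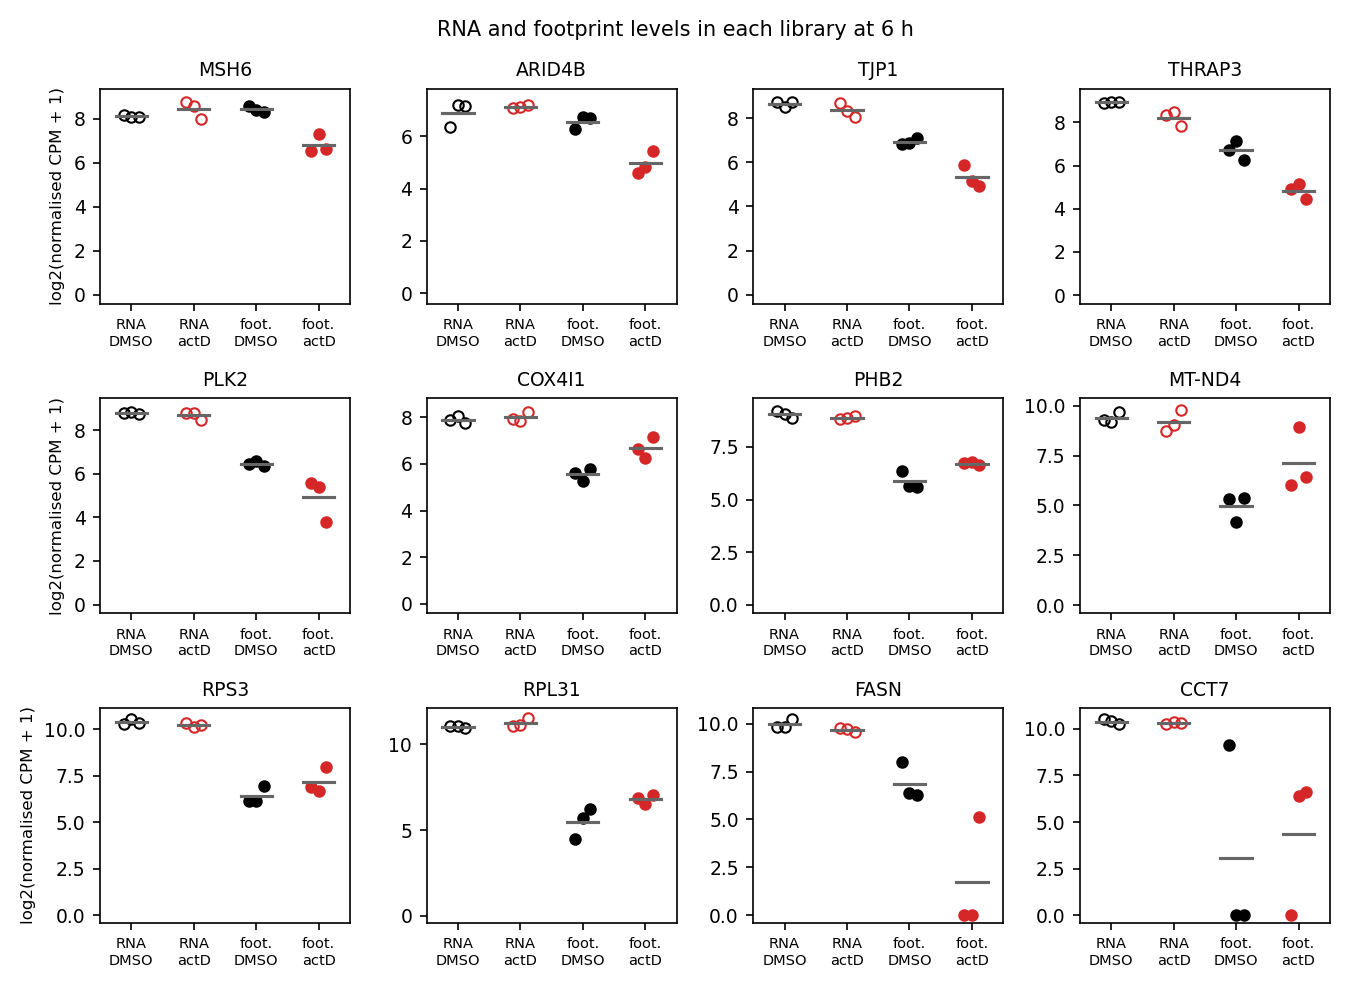
RNA (open circles) and footprint (filled circles) levels of 12 named genes in each 6 h library, as log2 of normalised CPM plus 1, with DMSO in black, actD in red and a grey line at the mean of the 3 libraries. MSH6, ARID4B and TJP1 footprints lie below DMSO in every actD library, COX4I1 and PHB2 above it, and FASN and CCT7 include libraries listed at 0.

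Ribosomal protein messages had slightly higher fitted efficiencies in actD, none past the test. Of 19 large-subunit ribosomal proteins tested, 14 had a change above 0, with a median of 0.288, and of 12 small-subunit proteins 10 did, with a median of 0.380. Over all genes tested 453 (47.6%) were above 0 and the median was -0.026. None of the 31 had an unadjusted p under 0.05. The median RNA change was 0.126 in the large and 0.060 in the small subunit, and the median footprint change 0.44 and 0.50. Many ribosomal protein genes have near-identical pseudogene copies, and how reads that fit several places were assigned is not given in the sources used here, so their levels are uncertain.

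RPL31 and RPS3 had the highest fitted change in their subunits. RPL31 footprints were at 117, 88.9 and 132 CPM in actD and 21.6, 52 and 75.3 CPM in DMSO, and its efficiency change was 1.05 (SE 0.54, edgeR adjusted p = 0.941). RPS3 footprints were at 117, 103 and 255 CPM in actD and 71.2, 69.3 and 123 CPM in DMSO, and its efficiency change was 1.06 (SE 0.49, edgeR adjusted p = 0.878). The groups of RPL31 did not overlap, while 1 DMSO library of RPS3 lay among the actD values. RPS3 carries the small nucleolar RNA genes SNORD15A and SNORD15B. RPL5, RPL7A and RPS4X also had footprint groups apart, all higher in actD, which makes 4 of 31 (RPL31 included) against 6.94% of all genes.

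The lowest changes in the 2 subunits belonged to RPLP0, part of the ribosomal stalk, and to FAU, which encodes eS30 fused to a ubiquitin-like protein. RPLP0 footprints were at 58.3, 34.2 and 63.7 CPM in actD and 69, 54.9 and 89 CPM in DMSO, with an efficiency change of -0.52 (SE 0.42). FAU footprints were at 81.6, 54.7 and 119 CPM in actD and 114, 162 and 47.9 CPM in DMSO, with an efficiency change of -0.47 (SE 0.51). The groups of both overlapped. The interval of RPL31 reached from -0.13 to 2.23 and that of RPLP0 from -1.44 to 0.40, so both include 0.

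The summed footprint level of the large-subunit genes was 2845, 1806 and 2666 CPM in actD and 1856, 2155 and 1622 CPM in DMSO. That of the small-subunit genes was 1656, 1217 and 2246 CPM in actD and 1116, 1162 and 1410 CPM in DMSO. In both subunits the second actD library lay inside the DMSO range. The median of the large subunit stood 0.314 above that of all genes and kept its sign in 27 of 27 alternatives, from 0.218 to 0.490. The median of the small subunit stood 0.407 above and ranged from 0.060, without the third actD footprint library, to 0.654.

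Messages can be grouped by their start sequences. The ribosomal protein starts printed above all carry the run, those with the highest and those with the lowest fitted change alike. Of 680 tested protein-coding genes with a RefSeq start sequence, 63 (9.26%) begin with a C followed by 4 or more C or T, read on the sense strand at the annotated start, against 4.04% of 27305 start windows of the same length. Of 22 matched ribosomal protein genes 14 (63.6%) do. A single annotated start was read per gene, so a gene scored as without the run may carry it at another start base. The 14 had a median efficiency change of 0.330, with 12 above 0, and the 8 ribosomal protein genes without it 0.189, with 6 above 0. The 49 other genes with such a start had a median of -0.076, with 44.9% above 0, and the 609 other genes without it -0.118, with 40.1%.

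Translation factors, some of which carry the same TOP motif in textbook accounts, had a median change of -0.219, and 3 of 15 tested were above 0. Of the 14 with a RefSeq start sequence 3 (21.4%) had the pyrimidine start at the single annotated start read per gene. EEF1B2 and EIF1AX, named next, did not have it there, which does not exclude the motif at another start. EEF1B2, an exchange factor for elongation factor 1, was the highest, with footprints at 134, 130 and 132 CPM in actD and 86.3, 72.2 and 116 CPM in DMSO and a change of 0.32 (SE 0.29, edgeR adjusted p = 0.941). Its footprints and RNA were both above DMSO in every actD library, and snoRNA genes lie within it. EIF1AX, an initiation factor for start codon scanning, was the lowest at -1.25 (SE 0.50, edgeR adjusted p = 0.736) and the only 1 of the 15 with an unadjusted p under 0.05, with footprint groups that overlapped. EEF1A1, the main elongation factor, was listed at 0, 0 and 59 footprint counts in actD and 16, 44 and 26 in DMSO, so its change of -0.40 has an SE of 1.73. EEF2, which moves the ribosome along the message, had 99 to 550 counts and a change of -0.24 (SE 0.40). The median of the list turned to 0.092 above that of all genes when the 2 footprint libraries with the highest and the lowest microRNA share were left out.

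Proteasome genes are of interest because the title of the series pairs actinomycin D with proteasome inhibition. Of 33 listed proteasome genes found in both assays, 8 had enough counts, 5 of them above 0, with a median efficiency change of 0.351, a median RNA change of -0.031 and none at an unadjusted p under 0.05. PSMA3, an alpha-ring subunit of the core particle, was the highest at 0.62 (SE 0.41), with footprints at 152, 82.1 and 123 CPM in actD and 47.5, 60.7 and 116 CPM in DMSO. PSMB5, the catalytic subunit bound by bortezomib, had footprints at 87.4, 95.8 and 140 CPM in actD and 92.8, 78 and 68.4 CPM in DMSO and a change of 0.31 (SE 0.31). PSMD1, a scaffold of the regulatory particle, was the lowest at -0.26 (SE 0.45). Footprint groups overlapped in all 8 genes. The summed level ran from 642.9 to 836.4 CPM in actD and from 572.1 to 643.3 CPM in DMSO, and the lowest actD library lay inside the DMSO range.

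The 5 genes tested for ubiquitin and its activating enzymes all had an efficiency change below 0, with a median of -0.42 and none at an unadjusted p under 0.05. UBA1, the main ubiquitin-activating enzyme, had a change of -0.01 (SE 0.40), with footprints at 396, 397 and 242 CPM in actD and 576, 393 and 335 CPM in DMSO.

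Chaperones and the cytoskeleton gave wide spreads around 0. For these and the protein-coding lists that follow, the background is 341 of 806 protein-coding genes (42.3%) above 0, with a median of -0.105. Of 18 cytosolic and mitochondrial chaperones 7 were above 0 (median -0.185), and CCT8, the highest, had footprints at 274, 328 and 361 CPM in actD against 235, 205 and 287 CPM in DMSO and a change of 0.34 (SE 0.29). Of 6 tubulins 5 were above 0 (median 0.495). TUBA1A, at 3.68 (SE 1.62), had the highest fitted change of them from 0, 77 and 13 footprint counts in actD against 17, 0 and 5 in DMSO, so 1 library set the value. TUBB, the most expressed beta-tubulin in many dividing cells, had 57 to 287 counts and a change of -0.01 (SE 0.48). Tubulin genes are near-identical in long stretches, and the split of reads between them is uncertain.

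Of 21 actin and adhesion genes 16 were below 0, with a median of -0.305 and 1 at an unadjusted p under 0.05. That gene was ITGB1, the beta-1 integrin, chosen here after its values were seen, with footprints at 23.3, 41 and 42.5 CPM in actD and 92.8, 43.3 and 61.6 CPM in DMSO and a change of -1.08 (SE 0.41, edgeR adjusted p = 0.736). FLNA and TLN1, which link integrins to actin, also had lower footprints in every actD library, and together with ITGB1 they make 3 of 21 against 6.83% of all genes. TPM3, a tropomyosin, was the highest at 0.68 (SE 0.55). Without the 2 footprint libraries of extreme microRNA share the median of these genes stood 0.151 above that of all genes. Of 12 matrix genes 8 were below 0, among them CTGF, a secreted growth regulator, with footprints at 23.3, 27.4 and 50.9 CPM in actD and 188, 136 and 95.8 CPM in DMSO and an efficiency change of -1.37 (SE 0.52, edgeR adjusted p = 0.736). CTGF footprints lay below DMSO in every actD library. COL3A1, the most counted collagen, had footprints at 933, 1204 and 2042 CPM in actD and 1355, 1216 and 1061 CPM in DMSO and a change of -0.12 (SE 0.49).

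Splicing factors remove introns from messages in the nucleus. Of 37 tested 14 were above 0 and 23 below, with a median of -0.155, against 341 of 806 protein-coding genes (42.3%) above 0, and 6 of the 37 had footprints below DMSO in every actD library, against 6.83% of all genes. SRSF3, a splicing regulator, named after its values were seen, had footprints at 46.6, 20.5 and 55.2 CPM in actD and 82, 89.6 and 82.1 CPM in DMSO and an efficiency change of -0.88 (SE 0.36, edgeR adjusted p = 0.788). HNRNPC was the highest of the splicing factors at 0.43 (SE 0.36). The median RNA change of the 37 was -0.109 and their median footprint change -0.241.

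Of 21 DNA replication and chromatin genes 6 were above 0 and 15 below, with a median efficiency change of -0.211, a median RNA change of -0.193 and none at an unadjusted p under 0.05. The summed footprint level of these genes was 2588, 2791 and 2038 CPM in actD and 3711, 3444 and 3435 CPM in DMSO, without overlap. Their summed RNA level was 11640, 11050 and 10800 CPM in actD and 11800, 12850 and 12600 CPM in DMSO, also without overlap. Both sums were thus lower in actD, but sums are weighted to the most counted genes. The median footprint level of the list, as log2 of CPM plus 1, overlapped between treatments. It was 6.804, 6.787 and 6.193 in the actD libraries and 6.954, 6.633 and 6.491 in the DMSO libraries. TOP2A, the topoisomerase of dividing cells, had footprints at 396, 622 and 352 CPM in actD and 757, 919 and 1061 CPM in DMSO and an efficiency change of -0.79 (SE 0.41). Every actD footprint library of TOP2A lay below DMSO. H2AFZ, a histone variant, was the highest at 0.99 (SE 0.57), and RRM1, a subunit of ribonucleotide reductase, the lowest at -2.49 (SE 1.33) with 0, 0 and 10 footprint counts in actD against 88, 55 and 0 in DMSO.

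RNA polymerase I and ribosome assembly genes act in the nucleolus. Of 14 tested 6 were above 0 and 8 below, close to the 42.3% of protein-coding genes above 0. Their median was -0.201, against -0.105 for protein-coding genes. TCOF1, which promotes transcription of ribosomal DNA, named after its values were seen, had footprints at 29.1, 41 and 59.4 CPM in actD and 101, 89.6 and 75.3 CPM in DMSO and an efficiency change of -0.87 (SE 0.33, edgeR adjusted p = 0.736). The footprint groups did not overlap, and the RNA change of TCOF1 was -0.22. NPM1, a nucleolar chaperone, had footprints at 35, 13.7 and 46.7 CPM in actD and 43.2, 182 and 41.1 CPM in DMSO, so its change of -1.66 (SE 0.82) rests on 1 DMSO library, and without that library it was -0.59. NCL had 196 to 1286 footprint counts and a change of -0.25 (SE 0.48), but SNORA75, SNORD20 and SNORD82 lie within it, and its footprint level in DMSO was 2.13 times its RNA level. GNL3, a nucleolar GTPase, was the highest at 0.25 (SE 0.26).

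Histone messages of the S phase are made while DNA is copied. Of 42 tested 16 were above 0 and 26 below, with a median of -0.219 and changes from -0.92 for HIST1H2AH to 0.97 for HIST2H4B. By the fitted change the RNA of 36 of 42 was higher in actD, against 417 of 951 genes tested. The median RNA change of the 42 was 0.157 and their median footprint change -0.050. Their summed RNA level overlapped between treatments, at 25230, 27860 and 32510 CPM in actD and 29790, 25670 and 20510 CPM in DMSO. Histone genes are near-identical within a class and their levels are uncertain.

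**Figure D3:**
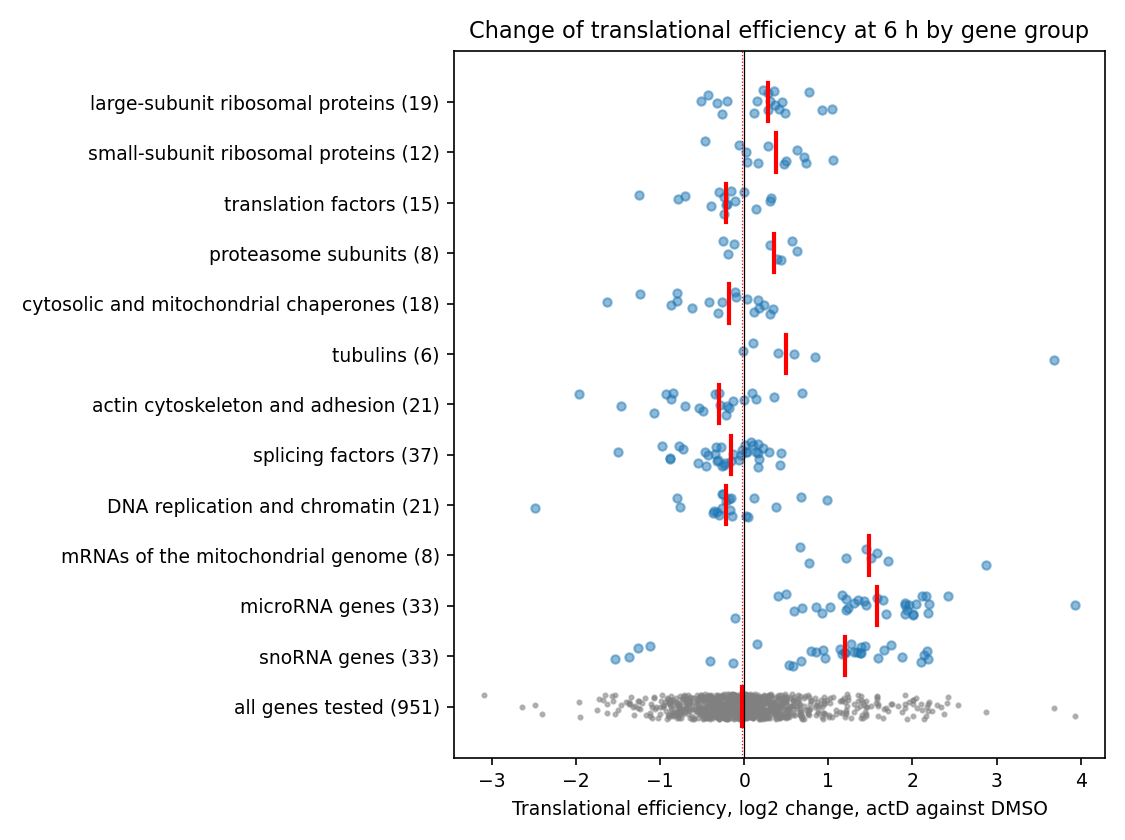
Log2 change of translational efficiency at 6 h, actD against DMSO, for the members of 12 gene groups, with the number tested in brackets, a red bar at each group's median and a dotted line at the median of all 951 genes. The medians drawn run from -0.305 for actin and adhesion genes to 1.577 for microRNA genes, and the spread within most groups is wider than the distance between their medians.

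The mRNAs of the mitochondrial genome, read by mitochondrial ribosomes, had the highest median of the protein-coding groups. All 8 tested had a fitted efficiency change above 0, with a median of 1.478, and all 8 had an RNA change below 0, with a median of -0.135. The summed RNA level of the 8 overlapped between treatments, at 6432, 6635 and 9755 CPM in actD and 9097, 7499 and 8117 CPM in DMSO. Their summed footprint level was 4209, 2585 and 492.5 CPM in actD and 237.3, 895.7 and 2245 CPM in DMSO, so the groups overlapped widely. In both treatments the order of the libraries was that of their microRNA share, 71.4%, 58.5% and 16.1% in actD and 4.67%, 45.1% and 60.8% in DMSO. Without the 2 libraries of highest and lowest microRNA share the median stood 0.047 above that of all genes, and the part of library composition in this difference was not tested further. MT-CO1, a core subunit of cytochrome c oxidase, shows the pattern at 974, 561 and 106.1 CPM in actD and 60.4, 217 and 493 CPM in DMSO. The efficiency change of MT-CO1 was 1.22 (SE 1.07). MT-ND4, a subunit of complex I, differed in that its footprints were higher in every actD library, at 64.1, 486 and 84.9 CPM against 38.8, 17.3 and 41.1 CPM, with an efficiency change of 2.87 (SE 0.96, edgeR adjusted p = 0.585). The second actD library held 71 of its counts against 11 and 20 in the other two, and without it the change was 1.36. Of 8 nuclear-encoded respiratory chain genes 3 were above 0, with a median of -0.258.

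Genes that make no protein were tested by the same rule, and for them the ratio of small RNA reads to total RNA is no translational efficiency. They had a higher median ratio change than protein-coding genes. Of 145 such genes 112 (77.2%) were above 0, with a median of 0.945, against 341 of 806 (42.3%) and -0.105 for protein-coding genes. Among small nucleolar RNAs, which guide modification of ribosomal RNA, 27 of 33 were above 0, with a median of 1.197 and 11 at an unadjusted p under 0.05. Among microRNA genes 32 of 33 were, with a median of 1.577 and a median SE of 1.835, and none had an unadjusted p under 0.05. Among the lincRNA genes 11 of 11 were. Of these, FP236383.3, FP671120.3, FP236383.2 and FP671120.4 had near-identical shares of each footprint library, so they do not count as separate genes here. Genes without protein made up 16 of the 50 members with an unadjusted p under 0.05, while 34 of 806 protein-coding genes (4.22%) did. Copies of the small RNAs are too alike to be told apart in many families.

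The fitted change also went with the length of the message. The protein-coding genes were split by coding length into 3 classes of near-equal size. In the shortest class (72 to 1296 bases) 49.4% were above 0, with a median efficiency change of -0.002. In the middle class (1299 to 2511 bases) 44.4% were, with a median of -0.060, and in the longest class (2514 to 22776 bases) 32.8%, with a median of -0.181. The median RNA change went the same way, at 0.070, -0.052 and -0.170, and so did the footprint change, at 0.083, -0.103 and -0.336. Spearman's rho between efficiency change and coding length over 805 genes was -0.139, a description across genes that share the same 12 libraries. Protein-coding genes with a small RNA gene on the same strand had a median of -0.021, with 48.5% of 274 above 0, and those without -0.157, with 39.1% of 532.

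The precision of the measurement bounds what these zeros mean. The median SE of the efficiency change was 0.471 and the median half-width of its 95% interval 1.04 on the log2 scale. For 185 of 951 genes (19.5%) the interval lay within -1 to 1, so a change by a factor of 2 or more lies outside their intervals, and for the others it does not. All 185 were protein-coding. Among them were RPL3, with 37 to 129 footprint counts and an interval of -0.44 to 0.99, and GNL3, with an interval of -0.31 to 0.82. The mean footprint count per library was 21.7 for the median gene and reached 19500 for noncoding genes. The most counted genes annotated as protein-coding were MTRNR2L12, MTRNR2L8 and MTRNR2L1, nuclear copies of the mitochondrial ribosomal RNA gene whose reads are uncertain, with NCL and COL3A1. MTRNR2L12 held 1284 to 4154 footprint counts with RNA at only 46.7 to 58.2 CPM, and its change was 0.70 (SE 0.54).

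**Figure D4:**
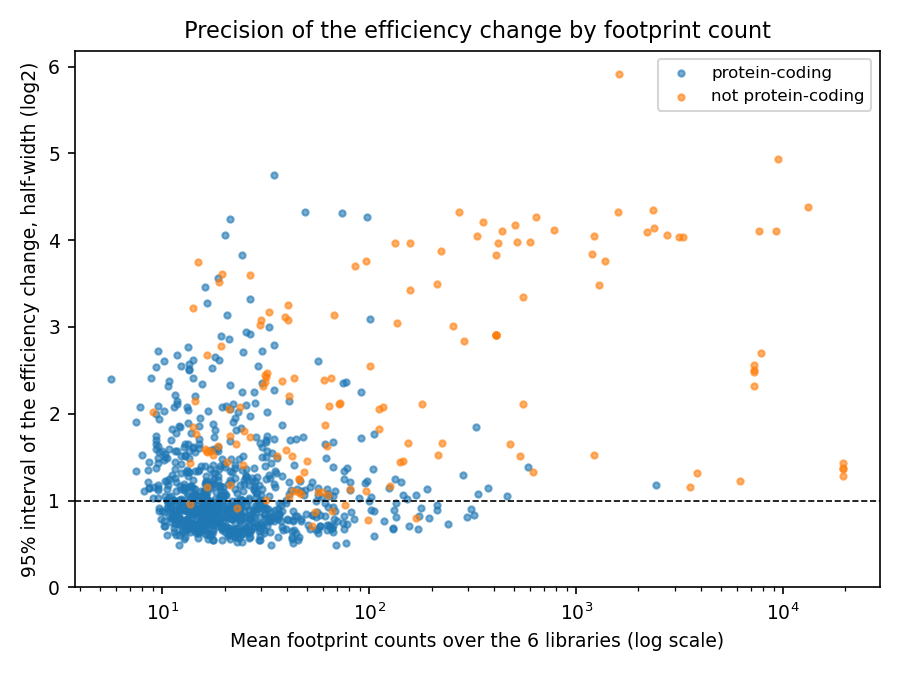
Half-width of the 95% interval of each gene's log2 efficiency change against its mean footprint count over the 6 libraries (log axis), with protein-coding genes in blue, other genes in orange and a dashed line at 1. The 185 points whose whole interval lies within -1 to 1 are all protein-coding, and the widest intervals among the most counted genes belong to genes that make no protein.

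The same contrast was made at 72 h, with other libraries throughout. At 72 h alone 10 of 2311 genes (0.433%) passed the efficiency test. A single model over the 24 libraries tested whether the actD effect on efficiency differed between 72 h and 6 h in 843 genes. By edgeR 0 genes (0%) passed, and 41 (4.86%) had an unadjusted p under 0.05, 32 of them (3.8%) higher at 72 h. DESeq2 called 3 genes, HDAC2, MOB1A and HDGF. Leaving out the third actD footprint library of 6 h gave 13 by edgeR, among them HDAC2, MOB1A and HDGF.

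The fitted efficiency change of ribosomal proteins was higher at 72 h than at 6 h for 30 of 31 genes. The difference, 72 h minus 6 h, was above 0 for 19 of 19 large-subunit genes, with a median of 1.354, and for 11 of 12 small-subunit genes, with a median of 1.006, against 426 of 843 genes (50.5%) and a median of 0.009 overall. The ribosomal proteins were listed with the 72 h result known, so their direction there is no independent support. RPL37 had a fitted change of 0.52 at 6 h and 2.89 at 72 h, a difference of 2.38 (SE 0.78, edgeR adjusted p = 0.617). RPS25 was the exception, with a difference of -0.08. No single ribosomal protein gene passed the test of the difference with all libraries.

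All 8 proteasome genes also had a difference above 0, with a median of 0.454. Translation factors split evenly, 7 of 14 above 0 with a median of -0.010, and EEF1B2 was among those above, at 1.71 (SE 0.60, edgeR adjusted p = 0.617). Of the 19 DNA replication and chromatin genes tested 4 were above 0, with a median of -0.406, but HDAC2, a histone deacetylase, was at 2.65 (SE 0.73, edgeR adjusted p = 0.617). Of the 21 actin and adhesion genes 15 were above 0, with a median of 0.383. ITGB1 had a fitted change of -1.04 at 6 h and 0.73 at 72 h, so its sign differed between the time points, and the difference of 1.77 (SE 0.62) had an edgeR adjusted p of 0.617.

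**Figure D5:**
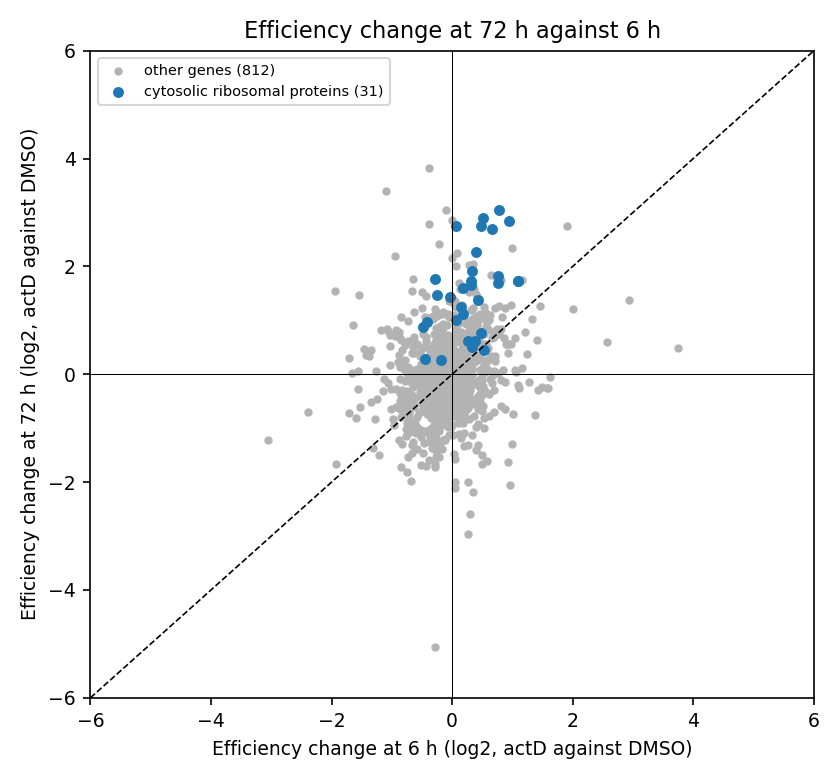
Log2 efficiency change at 72 h against that at 6 h, both actD against DMSO and fitted in 1 model, for 843 genes with cytosolic ribosomal proteins in blue and a dashed line where both are equal. The axes end at -6 and 6, which leaves 2 genes (GAS5 and MOB1A) outside, and 30 of the 31 ribosomal protein genes lie above the line.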

How the data were processed

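Total RNA (18 libraries in the series) and ribosome footprints were sequenced, and the 12 libraries of 6 h were analysed, with 12 of 72 h for 1 comparison. RNA libraries came from stranded total RNA kits and footprints from a small RNA kit after ribosomal RNA depletion, per the labels' protocols. The labels name 2 RNA extraction kits without assigning them to libraries. The authors deposited 1 table per assay and time with a value per gene and library, taken here as estimated counts (expected counts). They were already whole numbers. HISAT2, StringTie and hg38 are named in the submitters' processing notes, and their settings, the counting of reads with several matches and the use of strand are not given in the sources used here. Small values in the 6 h RNA table pile up at multiples of 2.67 counts, so no limit for a count of 0 is given for RNA.

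Symbols and coordinates came from GENCODE 29 (GRCh38), which matched 99.4% of identifiers, and sequences from RefSeq (GRCh38.p14), which held start sequences for 680 of the 806 protein-coding genes tested. Genes passing edgeR's filterByExpr in each assay entered a two-sided quasi-likelihood test of the assay-by-treatment term over 12 libraries (edgeR 4.0.16 under R 4.3.3), with TMM factors computed within each assay on the 951 genes tested and Benjamini-Hochberg adjustment. The script was tested on simulated data. The simulation did not model the isolated zeros or the varying microRNA share of the real footprint libraries, so it cannot show how the test behaves under them. DESeq2 1.42.0, limma 3.58.1, other scalings and filters, replicate blocks and leaving out each library were alternatives, and 4 of the alternatives were chosen after seeing the data. An exact permutation test of 3 against 3 libraries cannot go below p = 0.1. Genes named in the text are the 8 protein-coding genes with the smallest p in each direction, the 5 with the most footprint counts and the highest and lowest member of each list with 5 or more tested members. Any other gene named, such as PSMB5, EEF1A1 or TOP2A, was chosen after its values were seen, and some genes the rule picks are not reported here. The members and the gene lists were chosen with earlier results of these data known. The 2-week tables were not used here.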

Additional observations from a re-analysis of the deposited data

How the results depend on the processing

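The count of genes past the efficiency test at 6 h was 0 under library totals, protein-coding scaling, both other filters, TMM over all 12 libraries, limma, the RNA counts divided by their step, the fit joined with 72 h and 3 of the 4 alternatives added later. DESeq2 called 1, and leaving out the footprint libraries of highest and lowest microRNA share (actD replicate 1 and DMSO replicate 1) gave 3 (MT-CYB, CCT7 and COPB1). Leaving out each library gave 0 to 5, with 5 without the third actD footprint library, 4 without the third and 1 without the first DMSO footprint library, 3 without the second actD footprint library and 1 without the second DMSO RNA library. In RNA DESeq2 called 189 and leaving out each library 0 to 6. In footprints DESeq2 called 10 and leaving out each library 0. For 72 h minus 6 h DESeq2 called 3 and leaving out each library 0 to 13. The cause of these differences was not tested.

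The replicate block, with replicate number or culture as a term, gave 0 calls in each test. Deviations of RNA and footprint libraries with the same number correlated at -0.042 to 0.17, and of those with different numbers at -0.2 to 0.1. For actD and DMSO footprint libraries these values were -0.54 to -0.20 and -0.27 to 0.66. With 3 libraries per group and low footprint counts, the values cannot decide whether replicate numbers pair the samples.

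Library totals lowered the median of all genes from -0.026 to -0.749, and under them EEF1B2 was at -0.31, CCT8 at -0.18, P4HB at -0.016, TPM3 at -0.080, SARS at -0.25, HNRNPC at -0.41, GNL3 at -0.43 and FBN2 at -0.44, all still above that median. Of 1403 values of named genes under alternatives 1357 kept their direction without a call, 2 of MSH6 passed the threshold and 44 reversed. Besides those above, CCT7 was at 1.11 in limma, 0.89 under the culture block and 13.6 without the 2 libraries of extreme microRNA share. Without these NCL was at 0.15, COL3A1 at 0.18, UBA1 at 0.099, TUBB at 0.33 and MT-CO3 at -0.42. UBA1 was at 0.020 under protein-coding scaling, 0.0086 and 0.037 under the culture and replicate number blocks, 0.026 in the joined fit and 0.061 under scaling on nuclear coding genes. TUBB was at 0.00637 with DESeq2, 0.000747 with the stricter filter, 0.0096 in the joined fit, 0.0061 under scaling on nuclear coding genes and 0.094 with TMM on all genes passing in each assay. Leaving out each library ranged from -0.20 to 0.16 for UBA1, -0.44 to 0.24 for TUBB, -2.24 to 12.67 for CCT7, -0.53 to 0.083 for COL3A1, -0.52 to 0.014 for NCL and -1.73 to 0.11 for HYOU1.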
